A study of Homo sapiens with 3 samples.

Results

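The Janus kinases JAK1, JAK2 and TYK2, the transcription factors STAT2, STAT3, STAT5A, STAT5B and STAT6, and the feedback inhibitor SOCS3 were followed in LX-2 cells, an established human hepatic stellate cell line, with and without FGF19. These 9 genes were chosen by their gene symbols, out of 24254 symbols in the deposited table, and each symbol had 1 row. The mRNA of cells given vehicle and of cells given recombinant human FGF19 (rhFGF19) at 50 or 100 ng/mL was sequenced, 1 library each. No genetic change is named for any of them, and all 3 libraries are of the same line. The series record gives a stimulation of 24 h, while the sample descriptions give 72 h and 73 h and exchange both doses. Doses here follow the sample titles, and 50 and 100 ng/mL are called the lower and the higher dose. With 1 library per condition there was no replicate, no error could be attached to a value, and no test was made. Values are FPKM, fragment counts divided by transcript length and by library size, and the read depth behind them is unknown.

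Janus kinases sit on the inner side of cytokine receptors that have no kinase of their own. When a cytokine joins the receptor chains, the kinases phosphorylate each other and then the receptor, STAT proteins dock there, become phosphorylated on a tyrosine, pair and enter the nucleus. SOCS3 is among the genes that STAT3 switches on, and its protein binds receptor and kinase to end the signal. In stellate cells and fibroblasts this route carries signals of the IL-6 family and of interferons. Most of that control acts on proteins, and the mRNA values below do not measure phosphorylation.

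The JAK genes differ widely in the base composition of their mRNA, a property with which the differences between the libraries went along, as described further on. The contrast can be seen in the stretch of the coding sequence that encodes the activation loop of the kinase, from the conserved DFG motif to the APE motif, which has the same length of 93 bases in all 3 genes. The capitals mark the codons of the tandem tyrosines that are phosphorylated when the kinase becomes active.
JAK1: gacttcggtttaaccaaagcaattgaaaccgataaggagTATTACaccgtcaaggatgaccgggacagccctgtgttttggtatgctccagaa
JAK2: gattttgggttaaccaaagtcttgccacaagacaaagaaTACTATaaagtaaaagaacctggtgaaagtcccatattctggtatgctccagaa
TYK2: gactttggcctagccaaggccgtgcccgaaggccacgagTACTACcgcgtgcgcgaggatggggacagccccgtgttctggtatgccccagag
These are reference sequences of GENCODE 29 on GRCh38, read along the coding strand. The JAK1 stretch lies on the minus strand within chr1:64836203-64838011, that of JAK2 on the plus strand within chr9:5090832-5123016, and that of TYK2 on the minus strand within chr19:10352539-10353005. Each runs from exon 22 to exon 23 of the transcript with the longest coding sequence, so an intron interrupts it. The tyrosines are codons 1034 and 1035 in JAK1, 1007 and 1008 in JAK2, and 1054 and 1055 in TYK2. G and C made up 46.2% of the bases in JAK1, 37.6% in JAK2 and 65.6% in TYK2. Over the whole coding sequence the GC content was 47.8% in JAK1, 38.8% in JAK2 and 62.1% in TYK2.

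All 9 genes passed the filter on low values, a mean of at least 0.5 FPKM over the 3 libraries. JAK2 passed only through the rhFGF19 libraries, with a mean of 0.52. Differences are given as log2 fold changes of FPKM + 0.1 against vehicle, and a gene was counted as higher or lower when this difference passed 2-fold. At 50 ng/mL 3 of the 9 genes were higher by this measure, namely JAK1, JAK2 and STAT3, where 39.5% of all 12422 tested genes were. At 100 ng/mL the same 3 genes were higher, against 38.6% of all tested genes. None of the 9 was more than 2-fold lower at either dose, as were 1.75% and 1.47% of all genes. The share of the 9 genes was therefore close to that of all genes. The median log2 fold change of the 9 genes was 0.38 at both doses, below the median of all tested genes, which was 0.62 at both doses. JAK1, JAK2 and STAT3 were the 3 genes above that median.

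**Figure D1:**
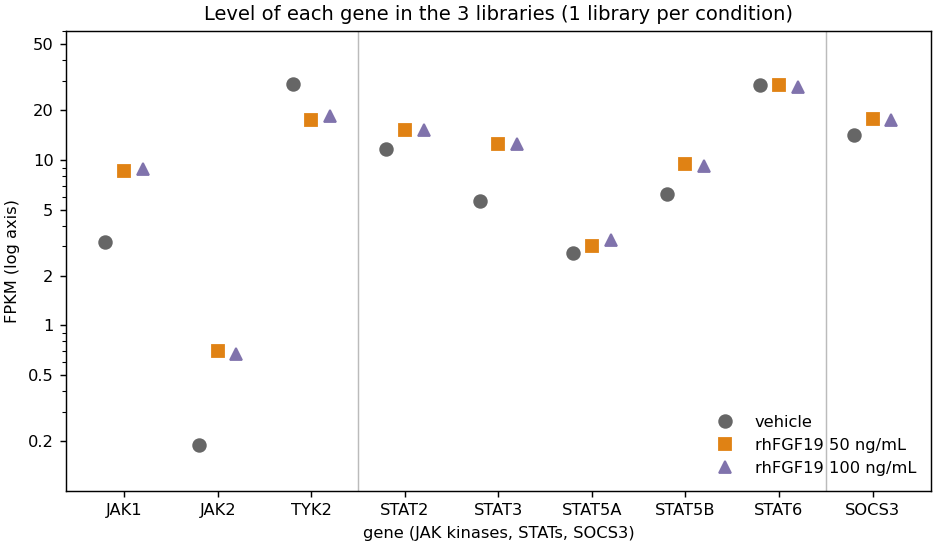
Level of each gene in FPKM (log axis) in the vehicle library and in the libraries at 50 and 100 ng/mL rhFGF19, with 1 point per library and no error bars because there were no replicates. The vehicle point lies well below both rhFGF19 points for JAK1, JAK2 and STAT3, and above them for TYK2.

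JAK1, the kinase shared by the receptors of the IL-6 family, of interferons and of many other cytokines, is encoded on chr1:64833229-65067732 (ENSG00000162434, minus strand). It had 3.20 FPKM in vehicle, 8.56 at the lower dose and 8.85 at the higher dose. The vehicle library was the low one, and the rhFGF19 libraries lay close together. The log2 fold changes were 1.39 and 1.44. JAK2, which the study followed as the kinase downstream of the FGF receptor and which also serves the growth hormone and erythropoietin receptors, is encoded on chr9:4984390-5126974 (ENSG00000096968, plus strand). It was listed at 0.19 FPKM in vehicle, 0.70 at the lower dose and 0.67 at the higher dose. These levels are among the lowest tested, since 0.942% of the tested genes had a lower value in the vehicle library and 4.45% at the lower dose. The log2 fold changes of 1.46 and 1.41 depend on the constant added: with 1 FPKM in place of 0.1, JAK2 was no longer past 2-fold at either dose.

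TYK2, the kinase of type I interferon and IL-12 family receptors, is encoded on chr19:10350529-10380572 (ENSG00000105397, minus strand) and differed from JAK1 and JAK2. It had 28.9 FPKM in vehicle, 17.6 at the lower dose and 18.5 at the higher dose. Here the vehicle library was the high one. The log2 fold changes were -0.71 and -0.64, under 2-fold. Summed over these kinases, the level was 32.3 FPKM in vehicle, 26.8 at the lower dose and 28.0 at the higher dose. The composition of the sum, which a single scaling factor per library cannot alter, differed between the vehicle and the rhFGF19 libraries. TYK2 held 89.5% of it in vehicle, 65.5% at the lower dose and 66.0% at the higher dose. JAK1 held 9.92%, 31.9% and 31.6%, and JAK2 0.589%, 2.61% and 2.39%. The ratio of TYK2 to JAK1 was 9.02 in vehicle, 2.05 at the lower dose and 2.09 at the higher dose. On the log2 scale of FPKM + 0.1 the difference of this ratio from vehicle was -2.11 at the lower dose, -1.43 with quantile normalization and -0.87 with the GC trend removed. JAK3, the kinase of lymphocyte receptors, was not analysed here.

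STAT3, the mediator of IL-6 family signals that the study placed downstream of JAK2, is encoded on chr17:42313324-42388442 (ENSG00000168610, minus strand). It had 5.68 FPKM in vehicle, 12.5 at the lower dose and 12.4 at the higher dose. The rhFGF19 libraries were nearly equal and both lay above vehicle. The log2 fold changes were 1.13 and 1.11, not far past 2-fold, and after the libraries were centred on the median gene of at least 1 FPKM they were 0.90 and 0.89. Of the 9 genes, STAT3 was the lowest of those past 2-fold, and STAT5B, with 0.60 at the lower dose, was the highest of those that were not.

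STAT5A and STAT5B, the closely related mediators of growth hormone, prolactin and IL-2 family signals, are neighbours of STAT3. STAT5B lies on chr17:42199177-42276406 (ENSG00000173757, minus strand) and STAT5A on chr17:42287547-42311943 (ENSG00000126561, plus strand). STAT5B had 6.24 FPKM in vehicle, 9.48 at the lower dose and 9.23 at the higher dose, or log2 fold changes of 0.60 and 0.56. STAT5A had 2.74, 3.01 and 3.26 FPKM, or log2 fold changes of 0.13 and 0.24. Neither passed 2-fold, and for STAT5A the difference between the rhFGF19 libraries, 0.11 on the log2 scale, was almost as large as that between 50 ng/mL and vehicle.

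Reads of STAT5A and STAT5B can be assigned to the wrong gene, because their mRNAs share long identical stretches. The longest run shared by their main transcripts was 429 bases of coding sequence. The last 60 bases of that run and the 30 bases after it are shown for both genes to make the likeness visible, with the capital marking the base at which they part.
STAT5A: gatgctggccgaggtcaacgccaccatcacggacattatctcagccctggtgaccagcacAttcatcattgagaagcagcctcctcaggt
STAT5B: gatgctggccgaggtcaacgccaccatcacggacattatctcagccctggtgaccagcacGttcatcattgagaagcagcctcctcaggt
The STAT5A stretch lies within chr17:42300814-42301307 on the plus strand and the STAT5B stretch within chr17:42218298-42218779 on the minus strand, both of GRCh38 and GENCODE 29. Of all windows of 100 bases in the STAT5A transcript, 8.83% occurred unaltered in that of STAT5B, and 7.41% the other way round. How many reads were assigned to the wrong gene was not tested. No window of 50 bases was shared by any of the other 12 pairs of JAK or STAT genes here.

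STAT2 and STAT6 lie on chromosome 12. STAT2, which joins IRF9 in the complex that answers type I interferon, is encoded on chr12:56341597-56360167 (ENSG00000170581, minus strand). It had 11.6 FPKM in vehicle, 15.2 at the lower dose and 15.1 at the higher dose, or log2 fold changes of 0.38 at both doses. STAT6, the mediator of IL-4 and IL-13 signals, is encoded on chr12:57095408-57132139 (ENSG00000166888, minus strand). It had 28.5 FPKM in vehicle, 28.3 at the lower dose and 27.7 at the higher dose, the most even values of the 9 genes, or log2 fold changes of -0.0086 and -0.041. STAT6 overlaps LRP1 and NAB2 on the opposite strand, both of which had 13.1 FPKM or more in every library, and whether the counting used strand is not given in the sources used here.

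STAT6 had the highest level of the 5 STATs in every library, but its share of their summed level was lower with rhFGF19. It held 52.0% in vehicle, 41.3% at the lower dose and 40.9% at the higher dose. The share of STAT3 was 10.4%, 18.3% and 18.3%. The ratio of STAT6 to STAT3 was 5.01 in vehicle, 2.26 at the lower dose and 2.23 at the higher dose. Its log2 difference from vehicle at the lower dose was -1.14, and -0.57 with quantile normalization and -0.34 with the GC trend removed. STAT2 held 21.2%, 22.1% and 22.3%, STAT5B 11.4%, 13.8% and 13.6%, and STAT5A 5.0%, 4.39% and 4.82%. STAT5B was above STAT3 in vehicle and below it in both rhFGF19 libraries. The summed level was 54.8 FPKM in vehicle, 68.5 at the lower dose and 67.7 at the higher dose.

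**Figure D2:**
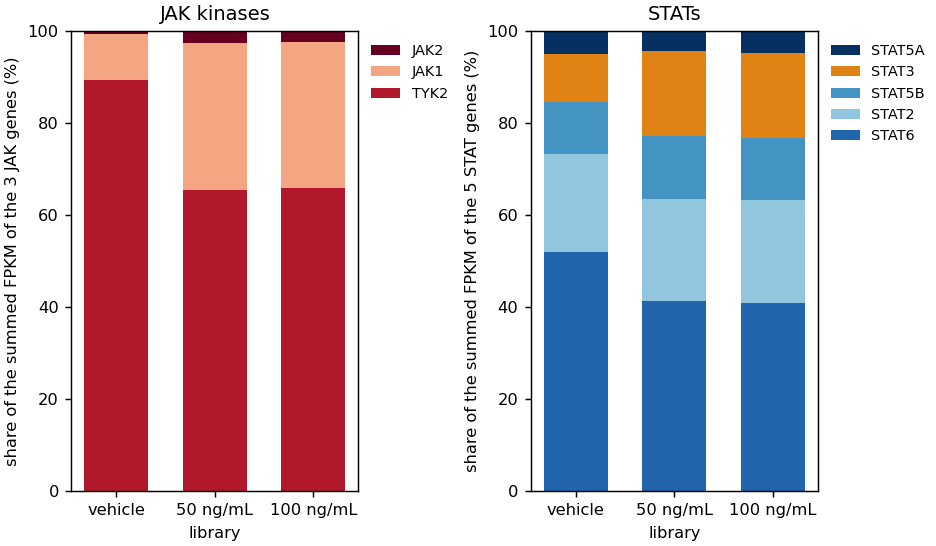
Share of each gene in the summed FPKM of JAK1, JAK2 and TYK2 (left) and of STAT2, STAT3, STAT5A, STAT5B and STAT6 (right), in percent, with 1 bar per library. TYK2 takes 89.5% of the JAK sum in vehicle and 65.5% at the lower dose, and STAT3 takes 10.4% and 18.3% of the STAT sum.

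SOCS3, the feedback inhibitor, is encoded on chr17:78356778-78360077 (ENSG00000184557, minus strand). It had 14.1 FPKM in vehicle, 17.6 at the lower dose and 17.3 at the higher dose. Both rhFGF19 libraries were above vehicle, and the log2 fold changes of 0.32 and 0.29 were well under 2-fold. The ratio of SOCS3 to STAT3 was 2.48 in vehicle, 1.41 at the lower dose and 1.40 at the higher dose. With the GC trend removed this turned: the log2 difference of the ratio from vehicle was 0.20 and 0.15, in place of -0.81 and -0.82. With GC and length trends removed it was 0.017 and -0.017, and with only the length trend removed -1.18 at both doses. From high to low, the levels were in the order TYK2, STAT6, SOCS3, STAT2, STAT5B, STAT3, JAK1, STAT5A and JAK2 in vehicle. At 100 ng/mL the order was STAT6, TYK2, SOCS3, STAT2, STAT3, STAT5B, JAK1, STAT5A and JAK2, and at the lower dose it differed from this in that SOCS3, at 17.6 FPKM, was just above TYK2. No spread was available to say which neighbours in these orders differ. TYK2 and STAT6 in vehicle, at 28.9 and 28.5 FPKM, and SOCS3 and TYK2 at the lower dose, at 17.63 and 17.55 FPKM, lay close together.

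The rhFGF19 libraries were compared with each other to see whether the dose mattered. None of the 9 genes differed by 2-fold between 50 and 100 ng/mL, where 1.63% of all tested genes did. The log2 differences ranged from -0.055 for JAK2 to 0.11 for STAT5A. The standard deviation of this difference over all tested genes was 0.32, and 0.25 over those whose mean was 1 FPKM or more. The 9 genes thus differed between the doses by less than the usual spread between these libraries. Against vehicle JAK1, JAK2, STAT3, TYK2, STAT5B and STAT2 differed by more than 0.32 at both doses, as did 81.5% of all tested genes at the lower dose and 80.5% at the higher dose. SOCS3 was at 0.32 and 0.29, and STAT5A and STAT6 lay below. The comparisons with vehicle share the single vehicle library, so their likeness at both doses is no repeat.

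**Figure D3:**
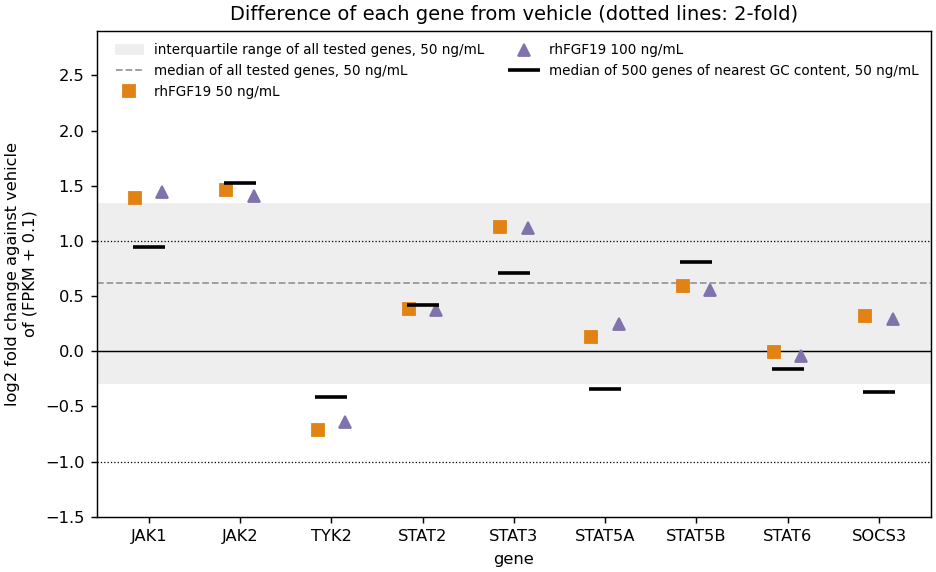
Log2 fold change of FPKM + 0.1 against vehicle at the lower dose (squares) and the higher dose (triangles) for each of the 9 genes, with 1 library per dose. The grey band is the interquartile range and the dashed line the median, 0.62, of all tested genes at the lower dose, and the black bars are the median of the 500 tested genes nearest in GC content: JAK2 lies at its bar, and SOCS3 and STAT5A lie above theirs.

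The differences from vehicle went along with the GC content of the transcripts in the whole series and among these genes. Over 12374 tested genes, Spearman's rho between GC content and the log2 fold change was -0.77 at the lower dose and -0.78 at the higher dose. Between the rhFGF19 libraries it was 0.068. Over the 9 genes it was -0.92 at the lower dose and -0.90 at the higher dose. These are descriptions across genes that share the same 3 libraries. JAK2 had the lowest GC content of the 9, 35.2%, and TYK2 the highest, 60.9%, as the median over the transcripts the table lists. Whether the GC content of the transcripts had a part in the differences was not tested, and since vehicle was the only library without rhFGF19, an effect of the library and of the treatment cannot be told apart.

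Set beside the 500 tested genes nearest in GC content, the order of the 9 genes was a different one. For JAK2 these neighbours had a median of 1.52 on the log2 scale at the lower dose, and its own value was 1.46. For JAK1 the median was 0.94 against its 1.39, and for STAT3 0.71 against its 1.13. For SOCS3 the median was -0.37 against its 0.32, and for STAT5A -0.34 against its 0.13. For TYK2 it was -0.42 against its -0.71. At both doses JAK1, STAT3, STAT5A and SOCS3 lay above the interquartile range of these genes, TYK2 below it, and JAK2, STAT2, STAT5B and STAT6 within it. After a smooth trend on GC content was removed, SOCS3 had the highest log2 fold change of the 9, 0.64 at the lower dose and 0.60 at the higher dose. JAK1 followed with 0.52 and 0.59, STAT3 with 0.45 and 0.45, and STAT5A with 0.38 and 0.48. The order differed under related settings: with GC and length trends removed JAK1, at 0.57 and 0.64, lay above SOCS3, at 0.52 and 0.48, and with the GC content of the longest transcript STAT3, at 0.52 at both doses, lay above JAK1, at 0.31 and 0.38. JAK2 had -0.074 and -0.13, and TYK2 -0.35 and -0.29. None of the 9 genes then passed 2-fold in either direction. Of all genes, 3.74% were then past 2-fold upward and 5.03% downward at the lower dose, and 3.31% and 4.49% at the higher dose.

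The direction against vehicle was kept under all 16 alternative settings for JAK1, TYK2 and STAT3, with ranges at the lower dose of 0.31 to 1.54, -1.44 to -0.28 and 0.41 to 1.27. Some of these settings alter only a filter, a threshold, the added constant or the row taken per symbol, and cannot move a direction for these genes. The direction was not kept for the other 6 genes. SOCS3 was at -0.41 with upper-quartile scaling and -0.47 after removal of the length trend, and kept its direction under the other 14. STAT2, STAT5A, STAT5B and STAT6 each changed direction under at least 3 of the 16 at the lower dose.

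The rest of the pathway was described by lists of receptors, regulators and targets, some genes of which stand in more than 1 list. Their counts stand beside the shares of all tested genes that were higher, 39.5% at the lower and 38.6% at the higher dose, and 3.74% and 3.31% with the GC trend removed. STAT4, a mediator of IL-12 signals, was listed at 0, 0.05 and 0.13 FPKM and did not pass the filter.

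Of 7 other genes of the SOCS family, which end cytokine signals or mark proteins for degradation, 5 passed the filter. SOCS4, SOCS5, SOCS6 and SOCS7 were more than 2-fold higher at both doses, with a list median of 1.35 at the lower dose and 1.60 at the higher dose. SOCS5 had 0.62, 2.08 and 2.24 FPKM in vehicle, 50 and 100 ng/mL. SOCS1, which like SOCS3 inhibits the kinases directly, had 3.40, 2.48 and 2.76 FPKM, or log2 fold changes of -0.44 and -0.29. The median GC content of these 5 genes was 43.3%, against 59.99% for SOCS3. With the GC trend removed 1 of the 5 was higher at each dose, and the median was 0.12 at the lower dose and 0.27 at the higher dose. With a constant of 1 FPKM the count was 1 at each dose, where 17.6% and 16.7% of all genes were higher. With TPM it was 5 at each dose, where 45.4% and 44.3% of all genes were higher. The filter was then applied to the TPM values and 15732 genes passed it, so the 5 higher ones were not the 5 tested in FPKM. With quantile normalization the count was 0 at each dose, where 8.98% and 8.22% of all genes were higher. It was also 0 with the length trend removed, where 13.96% and 13.5% were. Of the PIAS proteins and tyrosine phosphatases that restrain JAKs or STATs, 4 of 6 tested genes were higher at both doses, namely PIAS1, PTPN1, PTPN2 and PTPN11. PTPN2, a phosphatase of JAK1 and STATs, had 0.38, 1.64 and 1.26 FPKM. PTPN1, the most abundant of them, had 8.98, 22.1 and 22.3 FPKM, and PIAS4, with the smallest difference, had 5.95, 7.05 and 6.70. None of the 6 was higher with the GC trend removed, and 2 were with a constant of 1 FPKM.

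Among adaptors that join JAKs to other pathways, 5 of 10 tested genes were higher at the lower dose, namely SH2B3, STAM, STAM2, GAB2 and IRS2, and all of these but GAB2 at the higher dose. SHC1, the most abundant, had 112, 96.6 and 93.3 FPKM. STAM2 had 0.50, 1.51 and 1.52 FPKM, and SH2B2 6.93, 3.92 and 3.63. The count at the lower dose was near the share of all genes. With the GC trend removed it was 3, above the share of all genes, which was 3.74%. It was 1 with a constant of 1 FPKM, where 17.6% of all genes were higher, and 2 with centring, where 29.995% were. No adaptor was higher with upper-quartile scaling, where 8.68% of all genes were, or with the length trend removed, where 13.96% were. Among receptors of the gp130 family 3 of 5 tested genes were higher at both doses. IL6ST, which encodes gp130 itself, had 5.13 FPKM in vehicle, 15.9 at the lower dose and 15.9 at the higher dose, and log2 fold changes of 1.61 at both doses. OSMR, the oncostatin M receptor, had 6.42, 18.8 and 17.8 FPKM, and LIFR, the LIF receptor, 0.39, 1.16 and 1.29. IL11RA, the IL-11 receptor, had 2.05, 1.28 and 1.19 FPKM, or log2 fold changes of -0.64 and -0.74. JAK1, their main kinase, and IL6ST, OSMR and LIFR were thus higher in both rhFGF19 libraries in the deposited values. With the GC trend removed, none of the gp130 family genes passed 2-fold, and their median was 0.15 at the lower dose and 0.16 at the higher dose.

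Of 8 tested receptors of interferons and the IL-10 family, IFNAR1, IFNAR2 and IFNGR1 were higher at both doses and IFNGR2 at the lower dose. IFNGR1, a chain of the interferon gamma receptor that binds JAK1, had 0.82 FPKM in vehicle, 3.94 at the lower dose and 3.39 at the higher dose, or log2 fold changes of 2.13 and 1.92. IFNGR2, its partner that binds JAK2, had the highest level of the list, 13.0, 26.3 and 24.5 FPKM. IL22RA1 had 0.86, 0.87 and 0.80. These counts were close to the shares of all genes, and with the GC trend removed none of the 8 was higher. Of 7 tested receptors of the IL-2, IL-4 and IL-12 families, IL7R and IL13RA1 were higher at both doses and IL12RB1 was lower at the lower dose. IL7R, the IL-7 receptor, had 7.98, 27.4 and 26.1 FPKM. IL12RB1, which binds TYK2, had 0.77, 0.33 and 0.42. No gene of this list was higher with the GC trend removed. Of 12 genes of growth hormone, erythropoietin and related receptors only EPOR and CRLF2 passed the filter, and neither passed 2-fold. EPOR had 5.95, 4.79 and 5.31 FPKM.

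**Figure D4:**
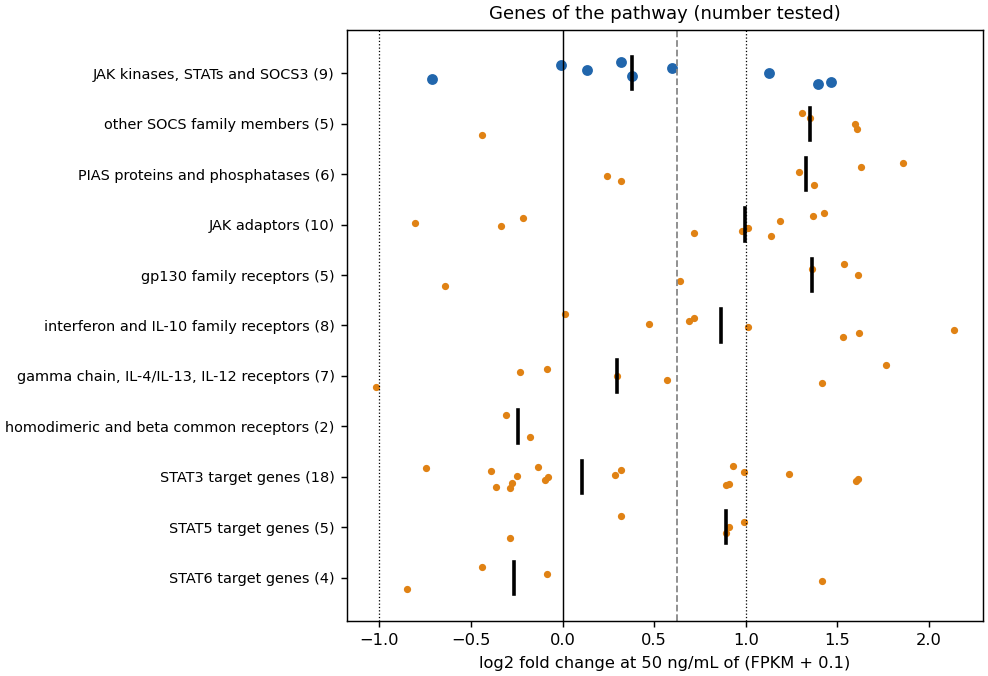
Log2 fold change at the lower dose of each tested gene in the lists (points), with the list median (black bar), the number of tested genes in brackets, and the median of all tested genes (dashed line); dotted lines mark 2-fold. The 9 genes of the top row have a median of 0.38, the other SOCS genes 1.35 and the STAT3 targets 0.10.

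The targets of the STATs were described next. Of 18 tested genes in a general list of STAT3 targets, which includes SOCS3, 3 were more than 2-fold higher at both doses, a share of 16.7% where that of all genes was over 38%. The count depended on the scaling: with TPM, where more genes passed the filter, 8 of the list were higher at the lower dose. Of all genes 45.4% were. With quantile normalization 4 of the list were higher at each dose, where only 8.98% and 8.22% of all genes were. With the GC trend removed 1 was. The 3 past 2-fold in the deposited values were MCL1, a survival factor, HIF1A, the hypoxia factor, and IL6ST. The median log2 fold change of the list in these values was 0.10 at the lower dose and 0.025 at the higher dose, below that of all genes. TIMP1, an inhibitor of matrix proteases and the most abundant of them, had 308 FPKM in vehicle, 184 at the lower dose and 193 at the higher dose. The list had a median GC content of 57.6%, and after the GC trend was removed its median was 0.16 at the lower dose and 0.15 at the higher dose. All 5 tested STAT5 targets, SOCS3 among them, are also in the STAT3 list, so these lists are not separate. None of the 5 passed 2-fold, where 39.5% and 38.6% of all genes were higher. With TPM 4 genes of the list did at each dose, where 45.4% and 44.3% of all genes were higher. More genes passed the filter with TPM, and these 4 were not all among the 5. With quantile normalization 1 did at each dose, where 8.98% and 8.22% of all genes were higher. With the GC trend removed 1 did at each dose, where 3.74% and 3.31% were. The median log2 fold change of the 5 was 0.89 at the lower dose and 0.85 at the higher dose, above the 0.62 of all genes. With the GC trend removed it was 0.64 and 0.60, where that of all genes was 0.0068 and 0.0057. The highest of the 5 was PIM1, a kinase, at a log2 fold change of 0.99 at the lower dose. It had 9.11, 18.2 and 17.9 FPKM, and BCL2L1, the most abundant of the 5, had 120, 98.7 and 103. Of 4 tested STAT6 targets only IL13RA1 passed 2-fold, with 2.18, 5.99 and 5.68 FPKM. CCL26 had 4.81, 2.63 and 3.64, and IL4R 14.5, 13.6 and 12.8.

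The genes with the pattern most like that of JAK2, STAT3 or SOCS3 were found by the distance over the 3 libraries of log2 values centred on each gene's mean, among genes whose mean was 1 FPKM or more. For JAK2 these were UBP1, MYO5A and TMEM97, for STAT3 CFAP20, RELCH and RNF11, and for SOCS3 CHURC1, MAGED1 and POP4. Many genes were nearly as close. Within a distance of 0.1 there were 722 of 10485 genes for JAK2, 644 of 10484 for STAT3 and 392 of 10484 for SOCS3.

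In the promoters of the 9 genes the letters TTCNNNGAA, to which STAT dimers are known to bind, were looked for in 17 windows of RefSeq on GRCh38.p14, which reach from 250 bases before to 50 bases after a transcript start. The motif reads the same on both strands. No window of the 9 genes held it, where 7.66% of all 35116 windows did. The same arms with 1 more base between them, as STAT6 prefers, stood in 1 window of STAT5A and in 6.44% of all windows. Only these letters in these windows were searched.

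As a check of the cell line, VIM was listed at 439 to 654 FPKM and COL1A1 at 78.4 to 108, whereas the stellate cell gene LRAT was listed at 0 in all 3 libraries, DES at 0.08 at most and COL1A2 at 0.14 at most. No epithelial marker passed the filter, with a sum of 0.19 to 0.41 FPKM. Of the blood cell markers CD14 and CSF1R passed it, and the sum of the list was 5.45 FPKM in vehicle and 3.20 to 3.38 with rhFGF19. Of the hepatocyte markers ALB and SERPINA1 passed it, with a list sum of 11.4 to 12.6 FPKM. The part of other cells in the values was not tested. The FPKM values of a library summed to 302243 in vehicle, 276690 at the lower dose and 281606 at the higher dose. In bulk RNA, a change in the RNA of each cell and a change in the mixture of cells cannot be told apart.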

How the data were processed

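mRNA of LX-2 cells was sequenced as poly(A)-selected, paired-end libraries, 1 per condition. Reads were mapped with HISAT2 by the authors, whose deposited table holds FPKM to 2 decimals for 26108 genes. The submitters' processing notes list HISAT2 2.0, StringTie 1.3.0 and Bowtie 0.12.2 without roles, and hg19 and mm8 as builds, but 99.9% of the 25531 identifiers found in GENCODE 29 had coordinates overlapping GRCh38. FPKM keep no read counts, so depth and counting error are unknown. Rows with the same symbol were summed. Log2(FPKM + 0.1) was compared between libraries for symbols whose mean was 0.5 FPKM or more, and 2-fold, the study's criterion, was the threshold. GC and length trends were fitted by lowess (span 0.3) and subtracted. GC content was the median over a gene's listed transcripts, found for 99.6% of tested symbols. The activation loop stretches were located by translating coding sequences. The members and lists were chosen with earlier results of these data known. Named genes were the members, the genes of highest and lowest averaged fold change and of highest level in each list, and the 3 genes nearest in pattern to JAK2, STAT3 and SOCS3. Some genes of the pathway, and the lists that hold them, are not reported here. Genes behind counts of 5 or fewer were also named, after their values were seen. Genes behind the lists' counts under alternative settings were not singled out. Calculations used Python 3.11.15, NumPy 2.4.6, pandas 2.3.3, SciPy 1.17.1, statsmodels 0.14.6, Biopython 1.88 and matplotlib 3.10.9, and were tested on simulated data.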

Additional observations from a re-analysis of the deposited data

How the results depend on the processing

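No paired analysis was possible because each condition had 1 library. For the same reason no library could be left out. The alternatives changed the scaling, filter, constant or threshold, removed GC or length trends, took the highest row per symbol, or averaged the rhFGF19 libraries. A value was taken as moved when it shifted by more than 0.32, the standard deviation between the rhFGF19 libraries. The number of the 9 genes more than 2-fold higher was 3 at 50 ng/mL, at 100 ng/mL and at both. It was 0 in each of these with quantile normalization, with upper-quartile scaling, with the trend on GC content removed, on length, or on both, with a 4-fold threshold, and with the GC content of the longest transcript, an alternative chosen after seeing the data. JAK2 did not pass the filter under the first 2. With a constant of 1 FPKM or a mean of at least 1 FPKM required, JAK1 and STAT3 were left, and with centring on genes of at least 1 FPKM, JAK1 and JAK2. The number lower, 0 as reported, was 1 at each dose, TYK2, with upper-quartile scaling, with the length trend removed and with a 1.5-fold threshold. The median log2 fold change of the 9 genes at 50 and 100 ng/mL was -0.376 and -0.377 with upper-quartile scaling and -0.0944 and -0.0907 with the length trend removed. Upper-quartile scaling moved the median of all tested genes at 50 ng/mL to -0.091, quantile normalization to 0.078, centring to 0.40, TPM to 0.83 and removal of the GC trend to 0.0068, so that directions under them are relative to other genes. With that trend and the centring, 42.7% and 82.7% of the calls at the lower dose were upward, against 95.8% as reported, and 25.3% with upper-quartile scaling, 46.1% with quantile normalization and 46.1% with the length trend removed. JAK2 changed direction, to -0.0737 and -0.127 with the GC trend removed, to -0.21 and -0.26 with both trends removed, and to -0.0258 at 100 ng/mL with the GC content of the longest transcript. The cause of these shifts was not tested.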

Other observations

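IRF9, the partner of STAT2 in the interferon complex, differed between the rhFGF19 libraries. It was singled out after its values were seen. It had 3.66 FPKM in vehicle, 3.72 at the lower dose and 0.93 at the higher dose, or log2 fold changes of 0.023 and -1.87 against vehicle, while the 9 genes differed by at most 0.11 between the doses. With 1 library per dose the difference was not tested.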
